A study of Mus musculus with 10 samples.

Results

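The genes described here encode nuclear subunits of the mitochondrial oxidative phosphorylation complexes and cytochrome c. Also included, because their symbols fit the same rule, are 2 assembly factors of complex I and Cox7a2l. Cox7a2l, a factor that joins complexes III and IV, is counted here with complex IV. All were read by probe sets of a mouse expression array in gastrocnemius, the large calf muscle. Members were the probe sets annotated to 1 gene whose symbol begins with Ndufa, Ndufb, Ndufc, Ndufs, Ndufv, Uqcr, Atp5 or Cox4 to Cox8, or is Cycs or Cyc1, and they were grouped by the complex the protein belongs to. This gave 97 of the 12422 non-control probe sets and 69 of the 8251 genes named by such a probe set. A further 10 probe sets whose several genes include such a symbol were left out. Muscles of 16-week-old male mdx mice were measured on 5 arrays and muscles of normal males of the same age, called control here, on 5 arrays. The mdx mouse carries a premature stop codon in the dystrophin gene Dmd, and its limb muscles go through cycles of fibre loss and regeneration. The study compared transcripts of such regenerated muscle with those of normal muscle. The labels give no strain for the control mice and do not state that each array had an animal of its own, so every p-value reflects only the scatter among these arrays, part of which may be technical.

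Complexes I to IV of the inner mitochondrial membrane pass electrons from NADH and succinate to oxygen, and complexes I, III and IV pump protons as they do so. Complex V, the ATP synthase, lets the protons flow back and makes ATP, while cytochrome c carries electrons between complexes III and IV. Muscle fibres are rich in mitochondria, oxidative fibres more than glycolytic ones, and heart and skeletal muscle replace some ubiquitous subunits of complex IV by muscle isoforms.

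Values are deposited probe set intensities on a linear scale, and the number of arrays limits the precision. Changes are mdx minus control on the scale log2(intensity + 372.44), where 372.44 is the noise level, the root mean square of all values below 0, so that the change of a dim gene is understated. Correlations across tested probe sets were 0.952 to 0.977 within mdx, 0.961 to 0.977 within control and 0.885 to 0.910 between the groups. The brightest Dmd probe set read 159 to 237 in mdx and 643 to 1003 in control. Muscle fibre markers were above the noise level on all arrays for 14 of 14 genes, and of 3 liver genes Alb and Apoa2 lay below it on all 10 arrays. The third, Ttr, read 609, 699, 294, 97.6 and 760 in mdx and -80.6, -8.45, 605, 17.3 and -72.9 in control, and was called higher in mdx (0.85, limma adjusted p = 0.0483) with overlapping groups. Actin's 3′ signal divided by its 5′ signal, which tracks RNA quality, was 0.952 to 1.08 in mdx and 1.07 to 1.16 in control, and its part in the results below was not tested.

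Most of these transcripts made up a smaller part of the array signal in mdx muscle. Of the 66 member genes tested, 52 fell, 1 rose and 13 did not pass an adjusted p of 0.05 (limma, Benjamini-Hochberg over 7612 probe sets) with the deposited scaling, whereas 0 fell when arrays were scaled to hybridization controls or to muscle fibre markers. Among all 5767 genes tested with the deposited scaling, 18.6% were called lower and 16.1% higher, and of all probe sets 33.6% were called in either direction. The median change of the members was -0.49, or 0.711-fold, and that of all genes was -0.04. Signal in mdx did not overlap that in control for 35 of the 66 genes, against 26.3% of all genes. After quantile normalization it did not overlap for 18 of the 66, a share close to the 25.0% of all genes. The member genes lie on 19 chromosomes.

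**Figure D1:**
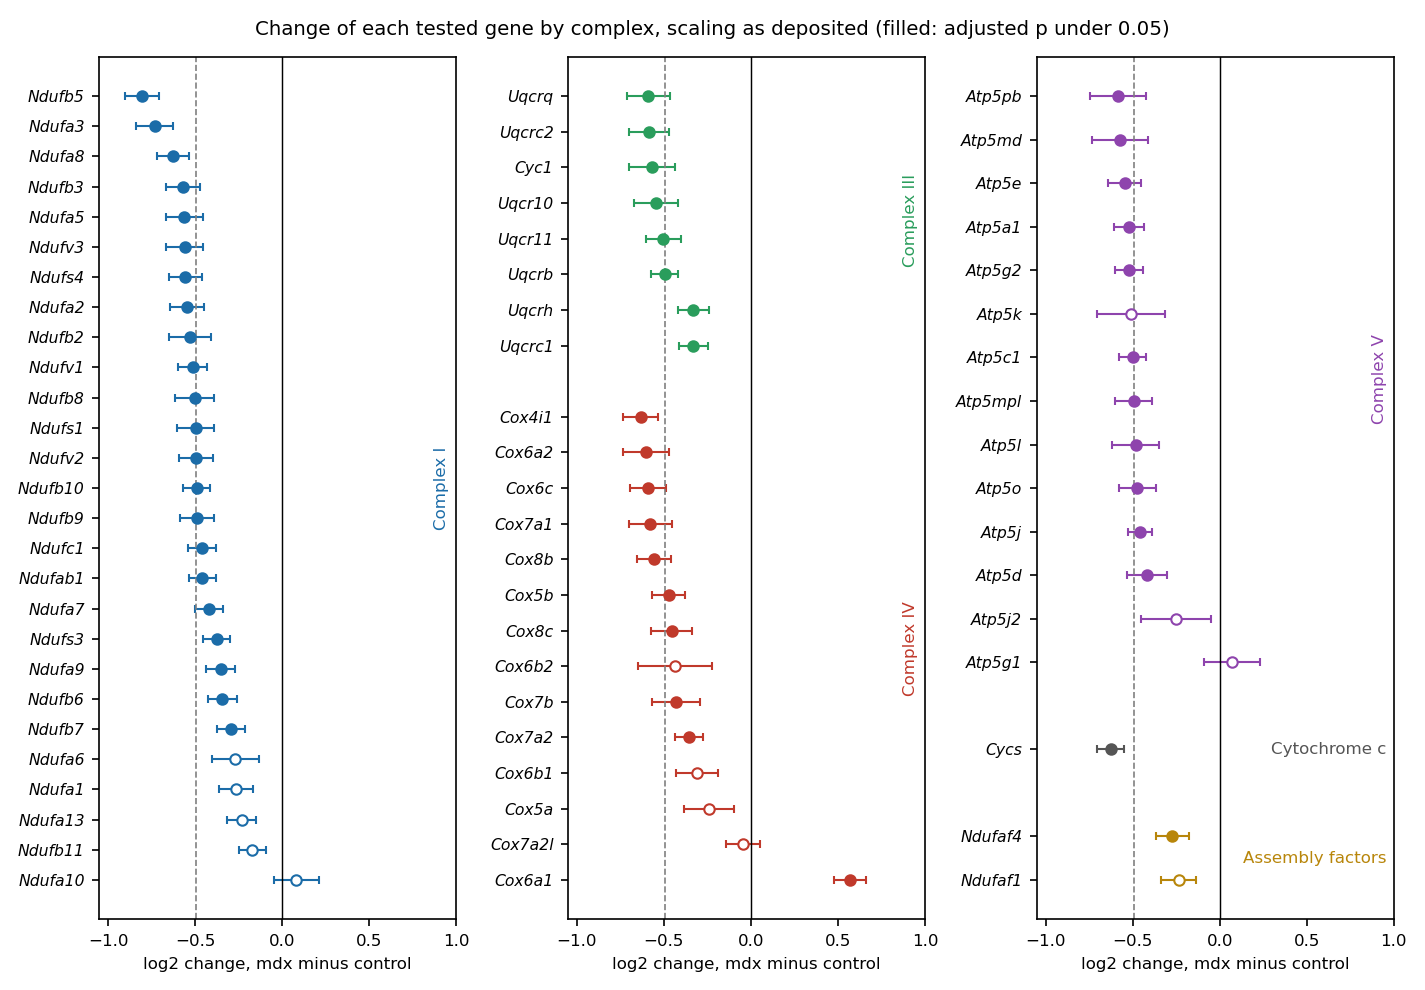
Log2 change (mdx minus control, 5 arrays each, deposited scaling) of each of the 66 tested genes by complex; bars are the standard error of the fit, filled points passed an adjusted p of 0.05, and the dashed line is the median member, -0.49. With this scaling 52 genes fell and Cox6a1 rose, while 0 genes fell with scaling to hybridization controls or fibre markers.

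The size of the fall, and its sign, moved with the scaling. Quantile normalization, which gives all arrays the same distribution, called 30 genes lower and 1 higher with a median of -0.21, against 18.5% of all genes called lower and 15.5% higher. Of these 30 genes 28 were also called lower with the deposited scaling, and Ndufa1 and Cox6b1 were called lower after quantile normalization but not as deposited. Equal trimmed means called 52 lower and 1 higher with a median of -0.46, against 17.4% of all genes called lower and 17.0% higher. Hybridization controls, transcripts added to each labelled sample in fixed amounts, read 5228 to 6826 in mdx and 8416 to 11076 in control as a geometric mean over 10 probe sets.

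Scaled to these controls, 0 member genes were called lower by limma (0 at an unadjusted p under 0.05) and 7 higher, with a median of 0.13. The background there was 1.4% of genes called lower and 49.7% called higher, and the median of all genes was 0.36. Scaled to the 14 fibre markers, 0 were called lower by limma (1 at an unadjusted p under 0.05) and 6 higher, with a median of 0.11 beside a median of 0.56 for all genes. Among the 6 was Atp5g1, which lay below the noise level on every array. The background with that scaling was 0.919% called lower and 59.4% called higher. Relative to the median gene of the same fit, the median member stood at -0.45 with the deposited scaling, -0.15 after quantile normalization and -0.23 with hybridization controls, where the noise level added after scaling damps the shift of dim genes. With fibre markers that value is the deposited one by construction, since all log2 values of an array are shifted alike. The median member lay below the median gene in each case, and its sign against 0 depended on the scaling.

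**Figure D2:**
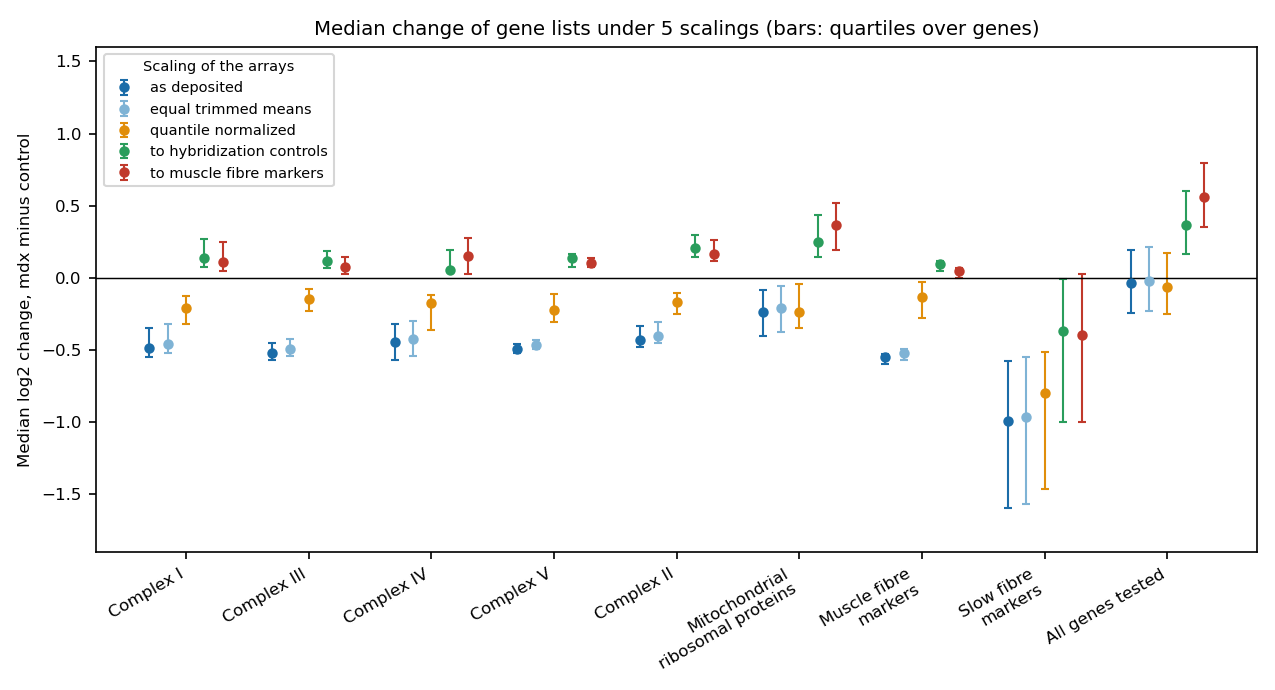
Median log2 change (mdx minus control, 5 arrays each) of the genes of each complex, of other lists and of all 5767 genes tested, under 5 scalings of the arrays; bars run over the quartiles of the genes. The medians of complexes I, III, IV and V lie below 0 as deposited, with equal trimmed means and after quantile normalization, and above 0 when scaled to hybridization controls or fibre markers, where the median of all genes lies higher still (0.36 and 0.56).

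The fall was seen on every mdx array with the deposited scaling. The median member stood at -0.53, -0.53, -0.33, -0.57 and -0.38 on mdx replicates 1 to 5 relative to the mean of control. On control replicates 1 to 5 it stood at -0.05, 0.07, 0.05, 0.04 and -0.09. The mdx and control arrays did not overlap in this median, with mdx replicate 3 nearest to control.

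Complex I oxidizes NADH and is the entry point of most electrons. Of its 27 tested genes 22 fell and 5 did not pass with the deposited scaling (median -0.49), and 16 fell after quantile normalization, while with scaling to hybridization controls or fibre markers none fell and the median stood at 0.14 or 0.11. The fall was spread over the arms of the complex. In the N module, which binds NADH, 7 of 8 tested genes fell with a median of -0.50. In the Q module, which hands electrons to ubiquinone, 3 of 3 fell with a median of -0.38. In the proximal membrane arm 3 of 6 fell with a median of -0.36, and in the distal arm 9 of 10 with a median of -0.49. No test compared the modules.

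The subunit with the smallest p was Ndufb5, an accessory subunit of the distal membrane arm. Its intensity was 24388, 25176, 28015, 23732 and 29992 in mdx, against 45394, 46267, 49861, 51495 and 38072 in control. The highest mdx array, replicate 5, lay below the lowest control array, which was also a replicate 5. The log2 change was -0.80 (SE 0.10, limma adjusted p = 4.89e-05), and -0.25 after quantile normalization. Ndufb5 also kept a negative value, with no call, when scaled to hybridization controls (-0.16) and to fibre markers (-0.21).

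Ndufa3, an accessory subunit of the proximal arm, read 14146, 14328, 16303, 13796 and 15968 in mdx and 23159, 25867, 30808, 25962 and 20160 in control. The groups did not overlap, and the log2 change was -0.73 (SE 0.11, limma adjusted p = 0.00018). Another Ndufa3 probe set gave -0.80, with the same call, and both carry the letter f, which marks probes shared within a sequence family. Ndufa8, another accessory subunit of that arm, read 5983, 5744, 7501, 5614 and 6551 in mdx and 9905, 10833, 9122, 10623 and 8802 in control. All mdx arrays were below all control arrays, and the change was -0.62 (SE 0.09, limma adjusted p = 0.000211). Ndufb10, of the distal arm, read 8816, 9206, 10938, 10339 and 9795 in mdx and 14079, 12880, 15502, 13593 and 13610 in control. These groups were also apart, with a change of -0.49 (SE 0.08, limma adjusted p = 0.000394).

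These genes differed in how much the scaling moved them. After quantile normalization Ndufa3, Ndufa8 and Ndufb10 stood at -0.45, -0.48 and -0.28 and kept their calls. Scaled to hybridization controls, Ndufa3 stood at -0.09, Ndufa8 at -0.0037 and Ndufb10 at 0.14, all without a call at the probe sets that represent them. The other Ndufa3 probe set was called lower after quantile normalization (-0.81, limma adjusted p = 0.000165) and with hybridization controls (-0.30, limma adjusted p = 0.0469). With fibre markers it stood at -0.20 without a call.

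Core subunits of complex I and the accessory subunits Ndufs4 and Ndufab1 moved by similar amounts with the deposited scaling. Ndufv1, which binds NADH and the flavin, changed by -0.51, and Ndufv2 and Ndufs1, which hold iron-sulfur clusters, changed by -0.49 and -0.50. Ndufs3, a core subunit of the Q module, changed by -0.38. Ndufs4, whose loss gives mice a fatal brain disease resembling Leigh syndrome, changed by -0.56, and by -0.60 after quantile normalization. Ndufab1, the mitochondrial acyl carrier protein, changed by -0.46. Each of these 6 genes passed the test with the deposited scaling, and the second Ndufv2 probe set, at -0.30, did not.

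The complex I genes that did not pass with the deposited scaling were Ndufa10, Ndufb11, Ndufa13, Ndufa1 and Ndufa6. Ndufa10, an accessory subunit related to nucleoside kinases, stood at 0.08 (SE 0.13), Ndufb11 at -0.17 and Ndufa13, also known as GRIM-19, at -0.23 (limma adjusted p = 0.0511). Ndufa10, Ndufb11 and Ndufa13 were called higher when scaled to hybridization controls (0.65, 0.46 and 0.40) and to fibre markers (0.68, 0.43 and 0.36). Ndufa6 stood at -0.27. Ndufa1, with all 10 arrays below the noise level, stood at -0.27 and was called lower after quantile normalization (-0.33, limma adjusted p = 0.0179). Ndufb7, of the distal arm, fell as deposited (-0.29, limma adjusted p = 0.0131) and was called higher with hybridization controls (0.34, adjusted p = 0.0268). Ndufa12 and Ndufc2 were not tested, since their signal lay around 0 in mdx as in control. Of the Ndufaf assembly factors, whose products help build complex I and are not in the finished enzyme, Ndufaf4 fell (-0.27, limma adjusted p = 0.0394) and Ndufaf1 did not pass (-0.24). Ndufaf4 stood at 0.13 with hybridization controls.

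Complex III passes electrons from ubiquinol to cytochrome c. All 8 tested genes fell with the deposited scaling, with a median of -0.52, and 2 of the 8, Uqcrb and Uqcrc2, kept the call after quantile normalization, while the medians with hybridization controls and fibre markers were 0.12 and 0.07. Uqcrb, a small subunit near the ubiquinone site, read 14370, 15622, 17300, 15023 and 15857 in mdx and 19381, 21964, 23797, 23892 and 22077 in control. The groups did not overlap, and the change was -0.50 (SE 0.08, limma adjusted p = 0.000404).

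Uqcrc2, a core protein of the matrix side, read 10707, 9662, 13060, 9182 and 10422 in mdx and 12553, 18317, 16924, 15866 and 16971 in control. Here mdx replicate 3 lay above control replicate 1, and the change was -0.59 (SE 0.11, limma adjusted p = 0.00166). Uqcr11, a small accessory subunit, read 15912, 15706, 19541, 13449 and 13800 in mdx and 23547, 22538, 20354, 23471 and 21165 in control. The groups were apart by a narrow margin at mdx replicate 3 and control replicate 3, and the change was -0.50 (SE 0.10, limma adjusted p = 0.00187). Uqcrq, another small subunit, read 25337, 23524, 27721, 23450 and 32758 in mdx and 37481, 43274, 47818, 40746 and 31701 in control. The replicates numbered 5 overlapped, and the change of -0.59 (SE 0.12, limma adjusted p = 0.00253) came down to -0.08 after quantile normalization, without a call.

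Cyc1, the cytochrome c1 subunit that hands the electron on, fell by 0.57 on the log2 scale (SE 0.13, limma adjusted p = 0.00562). It stood at -0.14 after quantile normalization and at 0.07 with hybridization controls, without a call. Its other tested probe set, which carries the letter r, stood at 0.49 without a call as deposited. It was called higher after quantile normalization (0.57, limma adjusted p = 0.0337), with hybridization controls (1.07) and with fibre markers (1.08). The probe sets of Cyc1 thus disagree in direction. Uqcrc1 and Uqcrh, the core protein and the hinge protein, fell by 0.33 each with the deposited scaling, and Uqcr10 fell by 0.54. With hybridization controls Uqcrh was called higher (0.31, limma adjusted p = 0.0194).

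Cycs, the mobile carrier cytochrome c itself, had the smallest p of the members after Ndufb5. Its intensity was 4474, 4825, 5433, 4422 and 4717 in mdx, against 6667, 7697, 7314, 8322 and 7866 in control. Every mdx array was below every control array. The log2 change was -0.63 (SE 0.08, limma adjusted p = 6.14e-05), and -0.51 after quantile normalization with the call kept (adjusted p = 0.000179). It stood at -0.01 with hybridization controls and -0.03 with fibre markers, without a call.

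Complex IV, cytochrome c oxidase, reduces oxygen to water and holds the member gene that rose, Cox6a1. Of 14 tested genes 9 fell, 1 rose and 4 did not pass with the deposited scaling (median -0.45), and 4 fell and 1 rose after quantile normalization, while 0 fell and 2 rose with hybridization controls (median 0.05) as with fibre markers (median 0.15). Cox4i1, the ubiquitous form of subunit 4, read 4327, 3530, 5153, 3732 and 4297 in mdx and 5719, 6480, 7292, 7055 and 6932 in control. The groups were apart, with a change of -0.63 (SE 0.10, limma adjusted p = 0.000401). The other Cox4i1 probe set stood at 0.07 and was not called as deposited, with 3 mdx and 2 control arrays below the noise level (means 412 in mdx and 369 in control). It was called higher with hybridization controls (0.40, limma adjusted p = 0.04) and with fibre markers (0.67, limma adjusted p = 0.00831). There the brighter probe set stood at -0.03 and -0.04, without a call.

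Cox6c, a small membrane subunit, read 22618, 17712, 24342, 20308 and 25305 in mdx and 31068, 35238, 36531, 34137 and 29393 in control. No array overlapped, and the change was -0.59 (SE 0.11, limma adjusted p = 0.000842). Cox8b, the form of subunit 8 found in heart and skeletal muscle, read 23383, 22418, 25593, 18541 and 25056 in mdx and 31654, 37349, 35273, 35338 and 29903 in control. The groups were apart here too, with a change of -0.56 (SE 0.10, limma adjusted p = 0.000887), and a further Cox8b probe set gave -0.68 with the same call. After quantile normalization Cox6c stood at -0.16 and Cox8b at -0.12 at the probe sets that represent them, and neither passed. The further Cox8b probe set kept its call there (-0.51, limma adjusted p = 0.00357). It stood at -0.06 with hybridization controls and -0.09 with fibre markers, without a call.

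The genes grouped under complex IV without a call as deposited were Cox7a2l, Cox5a, Cox6b1 and Cox6b2. Cox7a2l, a factor that joins complexes III and IV into supercomplexes, stood at -0.05 (SE 0.10), and was called higher with hybridization controls (0.54) and fibre markers (0.55). Cox5a, a matrix-side subunit, stood at -0.24 with all 5 mdx arrays and 2 control arrays below the noise level. Cox6b1, read by a probe set with the letter r, stood at -0.31 with 3 mdx arrays below the noise level. It was called lower after quantile normalization (-0.37, limma adjusted p = 0.028). Cox6b2, known as a testis form, stood at -0.44. Cox5b, Cox7b and Cox8c fell by 0.47, 0.43 and 0.46 with the deposited scaling.

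Cox6a1 was the only member gene called higher in mdx with the deposited scaling, and it was called higher under each of the 5 scalings. It encodes the ubiquitous form of subunit 6a, called the liver form, for which heart and skeletal muscle fibres mostly use Cox6a2. Its intensity was 5615, 6750, 7262, 7297 and 6992 in mdx, against 4233, 3882, 5236, 4515 and 4398 in control. Every mdx array exceeded every control array, the nearest being mdx replicate 1 and control replicate 3. The means were 6783 ± 690 in mdx and 4453 ± 499 in control (SD, n = 5 each). The change was 0.57 (SE 0.09, limma adjusted p = 0.000456) as deposited, 0.67 after quantile normalization, 1.18 with hybridization controls and 1.17 with fibre markers. The probe set carries the letter f, which marks probes shared within a sequence family, and Cox6a1 has no other probe set here, so related sequences may add to its signal.

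Cox6a2, the muscle form, moved the other way with the deposited scaling. Its intensity was 20479, 21422, 23585, 20849 and 26408 in mdx, against 33164, 39203, 42495, 34235 and 25028 in control. The replicates numbered 5 overlapped, and the other 4 mdx arrays lay below all control arrays. The change was -0.60 (SE 0.13, limma adjusted p = 0.00336), -0.13 after quantile normalization without a call (adjusted p = 0.0621), 0.04 with hybridization controls and -0.0062 with fibre markers.

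In the log2 difference between 2 genes of an array, a factor that scales the whole array cancels up to the effect of the added noise level, and 3 of 7 listed isoform pairs could be tested this way. The log2 difference Cox6a2 minus Cox6a1 was 1.68 ± 0.16 in mdx and 2.85 ± 0.29 in control (SD, n = 5 each), ranging over 1.47 to 1.86 in mdx and 2.41 to 3.22 in control. The groups did not overlap. The change in this difference was -1.17, or 2.25-fold against the muscle form (exact permutation test, two-sided, p = 0.00794, adjusted over 3 pairs 0.0119), and 0.00794 is the smallest p this design allows. A shift that depends on signal level does not cancel in the difference, and Cox6a2 is the brighter gene. After quantile normalization Cox6a2 changed by -0.13 and Cox6a1 by 0.67, a smaller gap than -0.60 and 0.57 as deposited. Summed intensity of macrophage markers was 63116 to 85681 in mdx and 3191 to 7384 in control, and its part in the isoform difference was not tested.

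Cox7a1 and Cox7a2, the muscle and ubiquitous forms of subunit 7a, fell together with the deposited scaling. Cox7a1 read 9890, 8564, 11833, 8617 and 11826 in mdx and 14538, 16017, 17645, 16445 and 11957 in control. The groups were apart only just, at mdx replicates 3 and 5 and control replicate 5, with a change of -0.58 (SE 0.12, limma adjusted p = 0.00305). Cox7a2 read 14170, 15619, 17592, 13853 and 16779 in mdx and 19873, 21382, 18589, 20843 and 19288 in control. These groups did not overlap, with a change of -0.35 (SE 0.08, limma adjusted p = 0.00508).

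The log2 difference Cox7a1 minus Cox7a2 was -0.61 ± 0.15 in mdx and -0.39 ± 0.22 in control (SD, n = 5 each). The change of -0.22 in this difference did not pass the exact permutation test (p = 0.0952, adjusted 0.0952). Without control replicate 5 it was -0.30 and passed (adjusted p = 0.0159 by the exact permutation test). With scaling to hybridization controls Cox7a1 stood at 0.05 and Cox7a2 at 0.28, neither called.

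The ADP/ATP carrier, which exports the ATP that complex V makes, is no subunit but has the same kind of isoform pair. Slc25a4, the heart and muscle form, read 24766, 24148, 27836, 23544 and 32719 in mdx and 36963, 43284, 44769, 39068 and 28962 in control, overlapping at the replicates numbered 5. Slc25a5, the form of dividing and many non-muscle cells, read 2406, 3702, 2657, 3868 and 4034 in mdx and 824, 980, 1494, 966 and 1377 in control, with no overlap. The log2 difference Slc25a4 minus Slc25a5 was 2.88 ± 0.33 in mdx and 4.70 ± 0.39 in control, a change of -1.83 (exact permutation test, p = 0.00794, adjusted 0.0119). With the mean of all tested probe sets of each gene the change was -1.21, with the same adjusted p. After quantile normalization Slc25a4 changed by -0.01 and Slc25a5 by 1.32, a smaller gap than -0.53 and 1.30 as deposited. Cox8a, the ubiquitous partner of Cox8b, was too dim to test, at 35.8 to 81.2 in mdx and 43.3 to 105 in control.

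**Figure D3:**
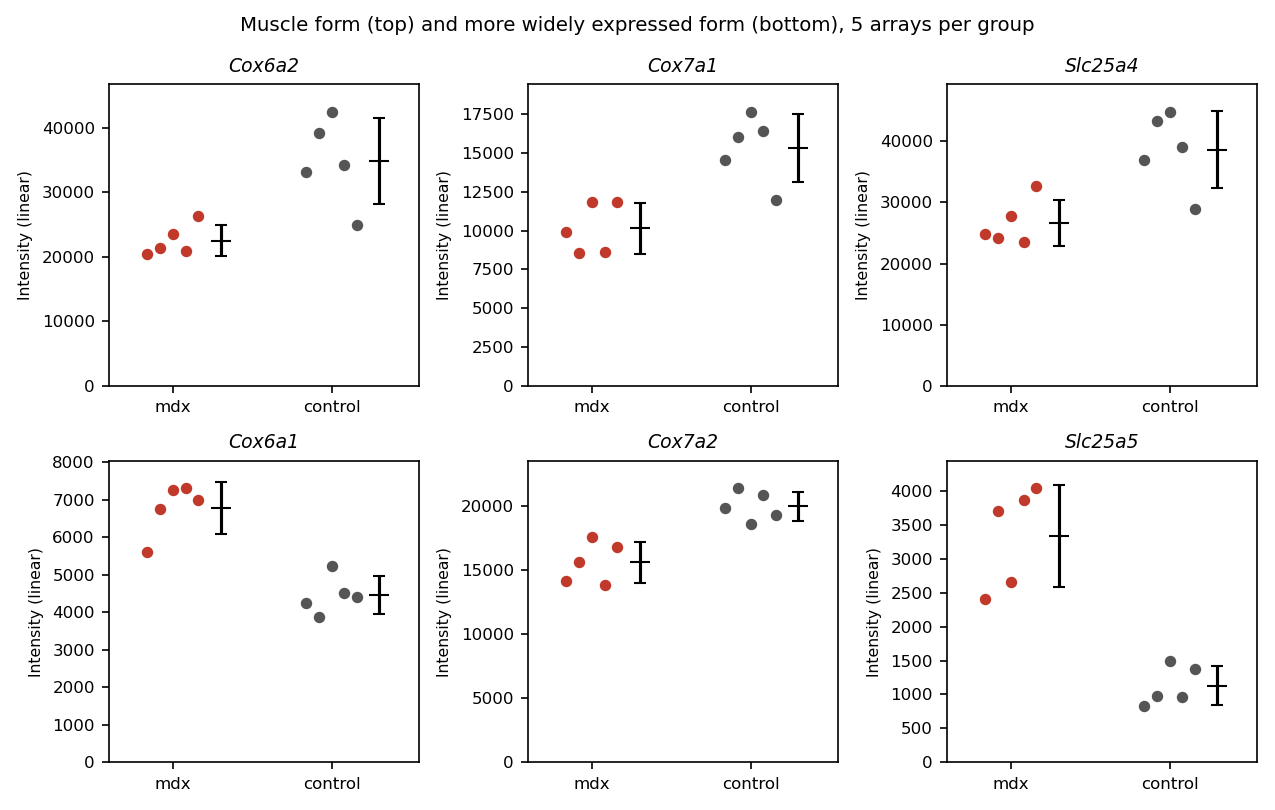
Deposited intensity (linear axis from 0) of the isoform genes on each of the 5 mdx and 5 control arrays; points are arrays, and the cross and bar beside them are the mean and the SD. Cox6a1 and Slc25a5 are higher in mdx without overlap, while Cox6a2, Cox7a1, Cox7a2 and Slc25a4 are lower in mdx with the deposited scaling, and stand above 0 at 0.04, 0.05 and 0.28 for Cox6a2, Cox7a1 and Cox7a2 when scaled to hybridization controls.

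The sequence just before the start of the gene is shown for Cox6a1, which rose, for Cycs, the carrier, and for Cox7a1, a muscle isoform. The windows hold the 250 bases before the start on the gene's strand and come from RefSeq, build GRCm38.p6, with motif matches in capitals. Cox6a1 lies at chr5:115348959-115349208 on the minus strand, Cycs at chr6:50566570-50566819 on the minus strand and Cox7a1 at chr7:30183921-30184170 on the plus strand.
Cox6a1: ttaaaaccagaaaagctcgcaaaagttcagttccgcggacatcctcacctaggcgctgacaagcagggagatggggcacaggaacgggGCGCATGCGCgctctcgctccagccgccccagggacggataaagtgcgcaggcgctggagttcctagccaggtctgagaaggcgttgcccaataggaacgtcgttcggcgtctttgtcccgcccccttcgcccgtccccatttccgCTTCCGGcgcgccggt
Cycs: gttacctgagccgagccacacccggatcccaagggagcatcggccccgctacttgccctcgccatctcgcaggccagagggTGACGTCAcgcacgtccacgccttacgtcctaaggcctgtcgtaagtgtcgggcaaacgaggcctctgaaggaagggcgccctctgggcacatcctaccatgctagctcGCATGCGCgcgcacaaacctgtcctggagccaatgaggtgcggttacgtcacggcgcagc
Cox7a1: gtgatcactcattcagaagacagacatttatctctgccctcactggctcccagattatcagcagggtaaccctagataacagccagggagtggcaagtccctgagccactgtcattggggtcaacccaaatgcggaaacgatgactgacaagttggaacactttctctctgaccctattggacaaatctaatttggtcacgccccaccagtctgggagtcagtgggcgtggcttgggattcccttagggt

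The letters searched on both strands were GCGCATGC for nuclear respiratory factor 1 (NRF-1), CCGGAAG for ETS factors such as GABP, TGACGTCA for the cyclic AMP response element and TATAAA for the TATA box. NRF-1 and GABP are known activators of respiratory chain genes. The Cox6a1 window held the NRF-1 letters on both strands, overlapping each other, and the ETS letters, the Cycs window held the response element and the NRF-1 letters, and the Cox7a1 window held none of the 4. Of 61 windows matched by symbol for 56 member genes, 16.4% held the NRF-1 letters, against 3.52% of all 21263 protein-coding windows. The ETS letters stood in 23.0% of member windows and 11.6% of all windows, the response element in 4.92% and 2.23%, and the TATA letters in 11.5% and 12.6%. A match is a description of the letters only. Member windows had a median GC content of 58.3%, against 56.3% in all windows.

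Complex V uses the proton flow to turn a ring of c subunits and make ATP in its catalytic head. Of 14 tested genes 11 fell and 3 did not pass with the deposited scaling (median -0.50), and 6 fell after quantile normalization, while none fell with hybridization controls (median 0.14) or fibre markers (median 0.10). Atp5j, coupling factor 6 of the peripheral stalk, read 13174, 12913, 14865, 12795 and 14188 in mdx and 18460, 18445, 18627, 20354 and 18054 in control. The groups were well apart, with a change of -0.46 (SE 0.07, limma adjusted p = 0.000258).

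Atp5c1, the gamma subunit of the rotating stalk, read 18288, 19394, 22229, 18789 and 18700 in mdx and 26290, 28993, 28731, 28775 and 25634 in control. No array overlapped, and the change was -0.50 (SE 0.08, limma adjusted p = 0.000269), with -0.33 for a further probe set of the same call. Atp5g2, a gene for the c subunit of the ring, read 2202, 2728, 2890, 3041 and 2838 in mdx and 3964, 3937, 4004, 4286 and 4186 in control. All mdx arrays were below control, with a change of -0.52 (SE 0.08, limma adjusted p = 0.000347). Atp5a1, the alpha subunit of the head, read 20540, 19339, 23066, 19609 and 23360 in mdx and 30653, 31701, 33905, 30518 and 26118 in control. The groups did not overlap, and the change was -0.52 (SE 0.09, limma adjusted p = 0.000619).

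Under quantile normalization these subunits parted. Atp5g2 and Atp5j kept their calls at -0.45 and -0.22, whereas Atp5c1 and Atp5a1 stood at -0.09 each without a call. Scaled to hybridization controls, Atp5j, Atp5c1, Atp5g2 and Atp5a1 stood at 0.18, 0.14, 0.06 and 0.12, without a call.

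Of the stalk genes, Atp5pb (subunit b) fell by 0.59 and Atp5o, the oligomycin sensitivity conferring protein, fell by 0.47 with the deposited scaling. Atp5e, the epsilon subunit, fell by 0.55. Atp5d, the delta subunit, fell by 0.42 at its brightest probe set, and its 3 other tested probe sets, at -0.27, -0.26 and -0.07, were not called. Atp5l, subunit g, fell by 0.48, stood at 0.07 after quantile normalization, and had a second probe set at -0.23 without a call. Atp5k stood at -0.51 (limma adjusted p = 0.0663) and Atp5j2 at -0.25. Atp5g1, another gene of the c subunit, read -50, 208, 246, 98 and 148 in mdx and 135, 276, 62, 16 and 92 in control. All 10 values were below the noise level and overlapped (change 0.07, limma adjusted p = 0.78). With fibre markers Atp5g1 was called higher (0.67, limma adjusted p = 0.00988), since that scaling shifts the log2 values after the noise level is added.

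Many of the members were among the brightest genes on the arrays, and other bright genes were lower in mdx as well. With a mean intensity of at least 10000, 40 of 42 members fell with a median of -0.50 with the deposited scaling, and 102 of 153 other genes fell and 15 rose, with a median of -0.45. Below 10000, 12 of 24 members fell and 1 rose, with a median of -0.39, and 920 of 5548 other genes fell and 911 rose, with a median of -0.03. After quantile normalization 18 of the 42 bright members fell, with a median of -0.18, beside 53 of the 153 other bright genes, with a median of -0.10. The dimmer members had the larger median after quantile normalization, -0.33, with 12 of 24 lower, beside -0.06 for other genes below 10000. With hybridization controls the medians of bright and dimmer members were 0.14 and 0.07. Across the 66 members, which share the same arrays, the deposited change went with the level (Pearson's r = -0.44, Spearman's rho = -0.45, as a description). The part of signal level in these changes was not tested further.

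**Figure D4:**
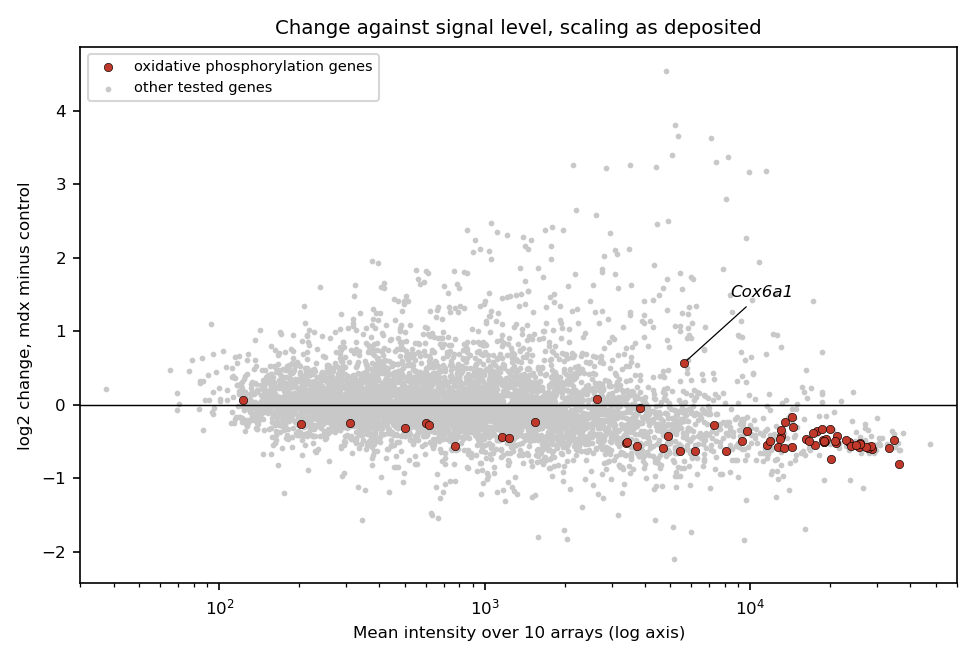
Log2 change (mdx minus control, deposited scaling) against mean intensity over 10 arrays (log axis) for the tested member genes and other tested genes, of which 2 with a mean below 0 are not drawn. Above 10000 the 42 members (median -0.50) lie in the same range as the 153 other bright genes (median -0.45), and with scaling to hybridization controls the same medians stand at 0.14 and 0.18.

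The makeup of the tissue differed between the groups beside these changes. In bulk muscle, fewer fibres and less RNA per fibre cannot be told apart. Of 14 fibre markers 10 fell with the deposited scaling, with summed intensities of 241820 to 363110 in mdx and 312990 to 527320 in control. Of 8 slow fibre markers 6 fell and 1 rose, with sums of 37302 to 43785 in mdx and 74113 to 97947 in control. Of 12 macrophage markers 11 rose, and of 8 fibroblast markers 6 rose and 2 fell, with fibroblast sums of 77915 to 90991 in mdx and 41527 to 52626 in control. Of 6 endothelial markers 2 fell, with sums of 3638 to 4741 in mdx and 5129 to 6130 in control. Of 3 adipocyte markers 1 rose, Adipoq (0.69, limma adjusted p = 0.000963), with sums of 7596 to 9725 in mdx and 7039 to 9044 in control. The red blood cell sums were 9058 to 15323 in mdx and 17623 to 31580 in control, with Slc4a1 below the noise level throughout. The part of these shifts in the changes of the subunits was not tested. Scaled to the fibre markers, the median member stood at 0.11 and Cox6a1 at 1.17.

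Other genes of the pathway were also lower more often than higher on the deposited scale. Of 111 tested genes of 6 lists 55 fell and 2 rose with a median of -0.30, while with hybridization controls 1 fell and 35 rose and the median stood at 0.24. Among all genes, 18.6% were called lower and 16.1% higher as deposited. With hybridization controls these shares were 1.4% and 49.7%, so the pathway genes were called higher less often than all genes. Complex II, which oxidizes succinate, had 3 of 4 genes lower with a median of -0.43. Sdha, which holds the flavin, changed by -0.51, Sdhb by -0.47 and Sdhc by -0.39, and Sdhd did not pass at -0.18. Of 11 assembly and translation factors 6 fell, with a median of -0.31. Lrpprc, which stabilizes mitochondrial messenger RNAs, changed by -0.45, and the complex III assembly factors Uqcc1 and Uqcc3 by -0.51 and -0.40.

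Carriers and proteins of electron entry held both genes that rose. Atpif1, the inhibitor of the ATP synthase, read 5367, 5376, 4819, 3944 and 4616 in mdx and 2459, 2485, 2419, 2667 and 2580 in control. All mdx arrays were above control, with a change of 0.84 (SE 0.09, limma adjusted p = 9.91e-06), 0.92 after quantile normalization and 1.42 with hybridization controls. Slc25a5 changed by 1.30 (limma adjusted p = 4.85e-05). Of the 12 genes of this list 8 fell, among them the porin Vdac3 by 0.68 and Etfa, an electron transfer flavoprotein subunit, by 0.69. Mitochondrial ribosomal proteins, which translate the subunits encoded in mitochondrial DNA, had 27 of 60 genes lower with a median of -0.23. Mrpl45 changed by -0.68 and Mrpl51 by -0.50. Of 19 import and folding genes 10 fell with a median of -0.33, Timm23, of the inner membrane translocase, by 0.65 and Hspe1, a chaperonin, by 0.51, and of 5 genes of mitochondrial DNA upkeep and transcription 1, Tfb2m, fell by 0.49.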

How the data were processed

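Gastrocnemius RNA was read on 5 mdx and 5 control arrays. The authors deposited linear intensities, 1 per probe set and array, of which 19.7% to 23.8% were below 0. The software, background correction and scaling are not given in the sources used here. The mean after trimming 2% from each end was 801 on 9 arrays and 723 on mdx replicate 1, so arrays appear to have been scaled by 1 factor each, and a change in total RNA cannot be seen.

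Negative values were replaced by 0 before log2(intensity + 372.44). A probe set was tested where its intensity exceeded 134.24, the 40th percentile, on at least 5 of 10 arrays. This left 7612 of 12488 probe sets, after 66 controls were removed, and 79 of the 97 members. Groups were compared in limma 3.58.1 under R 4.3.3 (lmFit, then eBayes with trend, two-sided and without covariates), with Benjamini-Hochberg adjustment at 0.05. The brightest probe set represents a gene. Genes were named through the platform annotation, and probe sets with several genes were not used. Of the 66 representatives 17 carry a letter (f, g, i, r or s) in the probe set name, such as f for shared probes, so related genes or pseudogene copies may add to them. Among the named genes the letter f stands on those of Ndufb5, Ndufa3, Uqcrb, Uqcrc2, Cox4i1, Cox6c, Cox6a1 and Atp5g2. The letter r stands on that of Cox8b and the letter g on that of Atp5c1.

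Isoform pairs were tested on per-array log2 differences by exact permutation in SciPy 1.17.1, and 4 of 7 listed pairs were not tested because a gene had no probe set annotated to it alone or was too dim. Alternatives covered scaling, pseudocount, filter, variance model, probe set choice, the replicate block and leaving out each array. Scaling to fibre markers shifted the log2 values, so it also moves genes below the noise level, such as Atp5g1. No 2 arrays shared more than 0.016% of their values. The fit was tested on simulated data. The members, lists and tests were chosen with earlier results of these data known. The named genes were the 4 of each complex with the smallest p, members called higher, both genes of each isoform pair and Cycs, with further members by role.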

Additional observations from a re-analysis of the deposited data

Results flagged for a closer look

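In 6 cases a value stood apart from their own group on the deposited scale. There, 1 of 5 arrays lay so far from the rest that its gap to the nearest exceeded 0.71 of the group's range. This was examined in 132 groups, and chance gives about 1 in 20. Atp5c1 read 22229 on mdx replicate 3, where the other mdx arrays read 18288 to 19394. Ndufa9 read 10353 on the same array, where the others read 7684 to 8418. Among control arrays, Atp5j read 20354 on replicate 4 (others 18054 to 18627) and Ndufa6 read 9444 on replicate 1 (others 7396 to 7856). Ndufaf4 read 568 on control replicate 1 (others 711 to 762), and Atp5j2 read 455 on control replicate 3 (others 698 to 751).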

How the results depend on the processing

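Of the main counts and pair differences, 238 values over the alternatives kept their direction and side of the threshold or lay within 1.5 times, and 25 did not. The counts turned on the scaling. Genes called lower were 30 after quantile normalization (complex III 2, complex IV 4, complex V 6) and 0 with hybridization controls or fibre markers, in total and in complexes I, III, IV and V by limma. Genes called higher were 7 with hybridization controls, 6 with fibre markers and 0 of 53 with only unlettered probe sets, which hold no Cox6a1 (limma, 0 at an unadjusted p under 0.05); there complex V had 7 of 11 lower. Other pathway genes were 1 lower and 35 higher with hybridization controls, 0 lower (0 at an unadjusted p under 0.05) and 33 higher with fibre markers. Among all genes tested, 49.7% were called higher with hybridization controls and 59.4% with fibre markers. With the replicate block the isoform differences Cox6a2 minus Cox6a1 and Slc25a4 minus Slc25a5 were still -1.17 and -1.83. Their adjusted p was 0.0938 each by the exact permutation test with signs flipped within replicate numbers. With 5 replicate numbers that test cannot give a p under 0.05. Members called lower by limma with the block were 50. The deviations of same-numbered arrays correlated at -0.16 to 0.044, and no mdx array correlated best with its own number. Whether the numbers pair the arrays is not given in the labels, and these few correlations cannot decide it. Leaving out 1 array gave 50 to 54 members lower and 1 higher, with complex I at 22 to 23, III at 8, IV at 8 to 11 and V at 11 to 12, other pathway genes at 48 to 55 lower and 2 higher, and pair differences of -1.28 to -1.08, -0.30 to -0.15 and -1.99 to -1.73; Cox7a1 minus Cox7a2 passed without control replicate 5 (-0.30).

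Of the 63 member genes below 0 as deposited, 56 stood above 0 with hybridization controls and 57 with fibre markers, and 2, Ndufb7 and Uqcrh, changed from called lower to called higher with hybridization controls. Among the genes followed through all alternatives, the values with hybridization controls and then fibre markers were positive for Ndufb10 (0.14, 0.11), Uqcrb (0.14, 0.10), Uqcrc2 (0.045, 0.010), Uqcr11 (0.13, 0.094), Uqcrq (0.054, 0.0075), Cyc1 (0.073, 0.029), Cox6c (0.050, 0.0048), Cox8b (0.085, 0.040), Cox7a1 (0.052, 0.018), Cox7a2 (0.28, 0.24), Atp5j (0.18, 0.14), Atp5c1 (0.14, 0.096), Atp5g2 (0.064, 0.076), Atp5a1 (0.12, 0.075), Cox7a2l (0.54, 0.55), Ndufb11 (0.46, 0.43) and Ndufa13 (0.40, 0.36), for Cox6a2 with hybridization controls only (0.039), and for Cox4i1 with unlettered probe sets (0.074). The cause of these shifts was not tested.

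Signal over background limits the dim members: Ndufa1 and Atp5g1 lay below the noise level on all arrays, and a pseudocount from the median of negative values (156.83) was added after seeing the data, as were unlettered probe sets. Complex I counts with Ndufa4 moved to it, and the pairs with Cox4i2 or Atp5g3, were not analysed here.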
